A study of Mus musculus with 12 samples.

Results

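Polyamine synthesis and its control were followed through 8 genes in naïve CD8+ T cells during the first hours of T cell receptor stimulation, with and without ligation of the inhibitory receptor LAIR-1. The genes were Odc1, Srm, Sms, Amd1, Azin1, Oaz1, Oaz2 and Sat1, and they were taken by symbol from the 14323 gene symbols of the count table. All 8 were found in the table, and 7 passed the filter on low counts in every comparison. Amd1 was the exception, with 0 counts in 11 libraries and 1 count in 1 library.

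The cells were sorted as TCRβ+CD8+CD62L+CD44- lymphocytes from the spleens of 3 wild type mice (adult C57BL/6N by the study's methods), plated at 100000 cells per well and cultured for 6 h on immobilized antibodies. The 4 groups were unstimulated isotype (isotype control in both positions), unstimulated anti-LAIR-1 (isotype control and the antibody 2C7 to LAIR-1 at 2.5 µg/ml), anti-CD3 isotype (2.5 µg/ml anti-CD3 with isotype control) and anti-CD3 anti-LAIR-1 (both at 2.5 µg/ml). Each mouse gave 1 library to each group, so that n = 3 per group and 12 libraries in all. LAIR-1 is a collagen receptor that dampens immune cell activation, and the antibody was coated on the plate to engage it. The age and sex of each mouse are not given in the sources used here.

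Polyamines (putrescine, spermidine and spermine) are small positively charged molecules that bind nucleic acids and that growing cells need. Ornithine decarboxylase, encoded by Odc1, makes putrescine, and the synthases encoded by Srm and Sms then add aminopropyl groups that come from S-adenosylmethionine through the decarboxylase Amd1. Antizymes (Oaz1, Oaz2) bind ornithine decarboxylase and send it to the proteasome, the antizyme inhibitor Azin1 occupies the antizymes, and the acetyltransferase Sat1 starts the breakdown and export of spermidine and spermine. Activated T cells are known to raise polyamine synthesis, and Odc1 is a known target gene of Myc.

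The libraries held 1781218 to 7725545 counts, and the unstimulated libraries (1781218 to 3589194 counts) were shallower than most libraries with anti-CD3 (3478294 to 7725545 counts). The share of counts on the mitochondrial chromosome was 17.6 to 20.9% in the unstimulated libraries and 11.5 to 13.2% with anti-CD3, and the part of either in the results below was not tested. Levels are given as CPM, which are counts scaled to a common library size by TMM over the 12 libraries, so that they are shares of the RNA of a library. A lower level per cell and fewer cells with the transcript cannot be told apart in such bulk samples, and neither can a change in the total RNA of a cell. In the 12 libraries, 3 counts corresponded to 0.407 to 1.58 CPM, and this floor covers counting error only. Of the 6 listed CD8 T cell markers 5 were in the table, with summed levels of 1364 to 2847 CPM, and none of the 5 was at 0. Cd4 reached at most 1.59 CPM, the 6 B cell markers together at most 19.8 CPM, and the 2 listed red cell and platelet markers in the table at most 3.42 CPM. The 6 of 7 myeloid markers in the table summed to 48.4 to 64.4 CPM in unstimulated cells and to 29.8 to 45.2 CPM with anti-CD3. Most of this was Cst3, at 28.0 to 63.4 CPM over the 12 libraries, and each other myeloid marker in the table reached at most 3.68 CPM. The 2 of 3 natural killer cell markers in the table summed to 415 to 467 CPM in unstimulated cells and to 71.4 to 162 CPM with anti-CD3, of which Klrb1c gave at most 0.664 CPM, and the 5 naïve T cell markers to 3499 to 3915 CPM and 407 to 707 CPM.

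The sequences before the start sites of Odc1, which opens the pathway, and of Sms, the member that differed with anti-LAIR-1, show the 2 kinds of motif that were searched for in the members. RefSeq windows of 300 bases around the start site (assembly GRCm38.p6) matched 6 of the 8 members, with 7 windows. The E-box CACGTG, the palindromic motif that Myc with Max is known to bind, was found in 1 of the 7 windows, against 7.15% of 32851 windows of all genes. The GC box GGGCGG, searched on both strands, was found in 5 of the 7 windows, against 35.7% of all windows. Sms has a second start site in RefSeq (window chrX:157491319-157491618), which held no CACGTG and 4 GGGCGG. These matches describe letters in a window and were not tested as binding sites. Capitals mark GGGCGG or its reverse complement CCGCCC in the Odc1 sequence (chr12:17544623-17544793, plus strand, 171 bases ending at the base before the annotated gene) and CACGTG in the Sms sequence (chrX:157492288-157492537, minus strand, 250 bases ending at the base before the annotated gene).
Odc1: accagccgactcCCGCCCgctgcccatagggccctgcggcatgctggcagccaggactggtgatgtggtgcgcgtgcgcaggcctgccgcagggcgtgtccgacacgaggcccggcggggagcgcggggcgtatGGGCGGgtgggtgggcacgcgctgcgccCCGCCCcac
Sms: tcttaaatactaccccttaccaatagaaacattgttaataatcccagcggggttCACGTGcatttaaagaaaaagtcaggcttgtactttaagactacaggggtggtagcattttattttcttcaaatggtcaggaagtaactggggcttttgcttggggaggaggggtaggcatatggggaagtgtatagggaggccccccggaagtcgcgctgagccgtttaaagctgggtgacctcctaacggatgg

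To determine how T cell receptor stimulation changed these genes, anti-CD3 isotype was compared with unstimulated isotype. The synthesis genes Odc1, Srm and Sms and the inhibitor gene Azin1 were higher with anti-CD3, and the antizyme gene Oaz2 was lower. Oaz1 and Sat1 did not pass the test. Thus 5 of the 7 tested members were called by edgeR's quasi-likelihood test at an adjusted p under 0.05, 4 higher and 1 lower, where 71.3% of 8690 genes were called, 35.3% higher and 36.1% lower. The share of members called was therefore near that of all genes. The median log2 fold change of the 7 members was 1.35, and that of all genes tested was -0.03.

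Odc1 (chr12:17544794-17551505, plus strand, GRCm38) encodes the enzyme of the first and rate-limiting step. Its level was 115, 103 and 104 CPM in unstimulated isotype cells of mouse 1, 2 and 3, and 678, 683 and 689 CPM with anti-CD3. The groups lay far apart, with a 6.02-fold difference (log2 fold change 2.59, SE 0.09, edgeR adjusted p = 7.6e-17). Of the genes tested, 2.96% had a higher fold change. Of the 60-base stretches in the last 500 bases of its transcript, 15.9% are shared with another annotated gene, and none is shared for Srm and Azin1.

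Srm (chr4:148591503-148594993, plus strand), which encodes spermidine synthase, rose most among the tested members. Its level was 99.2, 73.3 and 118 CPM in unstimulated isotype cells and 1311, 1458 and 1438 CPM with anti-CD3, and the groups did not overlap. The difference was 13.9-fold (log2 fold change 3.79, SE 0.12, edgeR adjusted p = 9.8e-18), and 1.15% of the genes tested had a higher fold change.

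Sms (chrX:157443855-157492287, minus strand), which encodes spermine synthase, rose less than Srm. The 3 unstimulated isotype libraries held 44.8, 40.8 and 43.1 CPM, and the 3 with anti-CD3 held 120.4, 111 and 119.8 CPM. This was a 2.58-fold difference (log2 fold change 1.37, SE 0.12, edgeR adjusted p = 5.4e-10). The 95% intervals of the log2 fold changes of Srm (3.54 to 4.05) and Sms (1.12 to 1.62) did not overlap.

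Amd1 (chr10:40287458-40302186, minus strand) could not be followed. In the annotation, 99.3% of the 60-base stretches in the last 500 bases of its transcripts also occur in its near-identical copy Amd2, which was not analysed here. Reads that match both copies equally well were discarded by the authors, and the low counts of Amd1 are therefore no measure of its level.

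Azin1 (chr15:38487427-38519266, minus strand), the antizyme inhibitor, rose from 30.9, 30.1 and 26.3 CPM to 78.7, 84.3 and 74.2 CPM. This was 2.56-fold (log2 fold change 1.35, SE 0.14, edgeR adjusted p = 6.3e-09). Oaz1 (chr10:80826656-80829290, plus strand), the main antizyme gene, held 43.5, 25.0 and 30.0 CPM without and 41.2, 41.0 and 40.5 CPM with anti-CD3. Here mouse 1 of the unstimulated group lay above all stimulated libraries, and the log2 fold change of 0.22 (95% interval -0.13 to 0.58) did not pass the test (edgeR adjusted p = 0.246). Without that library, Oaz1 passed at a log2 fold change of 0.49 (edgeR adjusted p = 0.0196). In the last 500 bases of its transcripts, 50.2% of the 60-base stretches of Oaz1 are shared with other annotated genes, chiefly a pseudogene, so its counts are uncertain.

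Oaz2 (chr9:65668001-65690300, plus strand), the second antizyme gene, went the other way. It fell from 18.9, 17.0 and 25.8 CPM to 6.45, 9.86 and 8.26 CPM, with no overlap between the groups. The log2 fold change was -1.36 (SE 0.25, edgeR adjusted p = 3.6e-05), a 2.57-fold lower level. Sat1 (chrX:155213132-155216449, minus strand), the first enzyme of polyamine breakdown, held 250.2, 224 and 240.3 CPM without and 202, 233.5 and 265 CPM with anti-CD3. These values overlapped, with a log2 fold change of -0.10 (95% interval -0.31 to 0.12, edgeR adjusted p = 0.399).

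**Figure D1:**
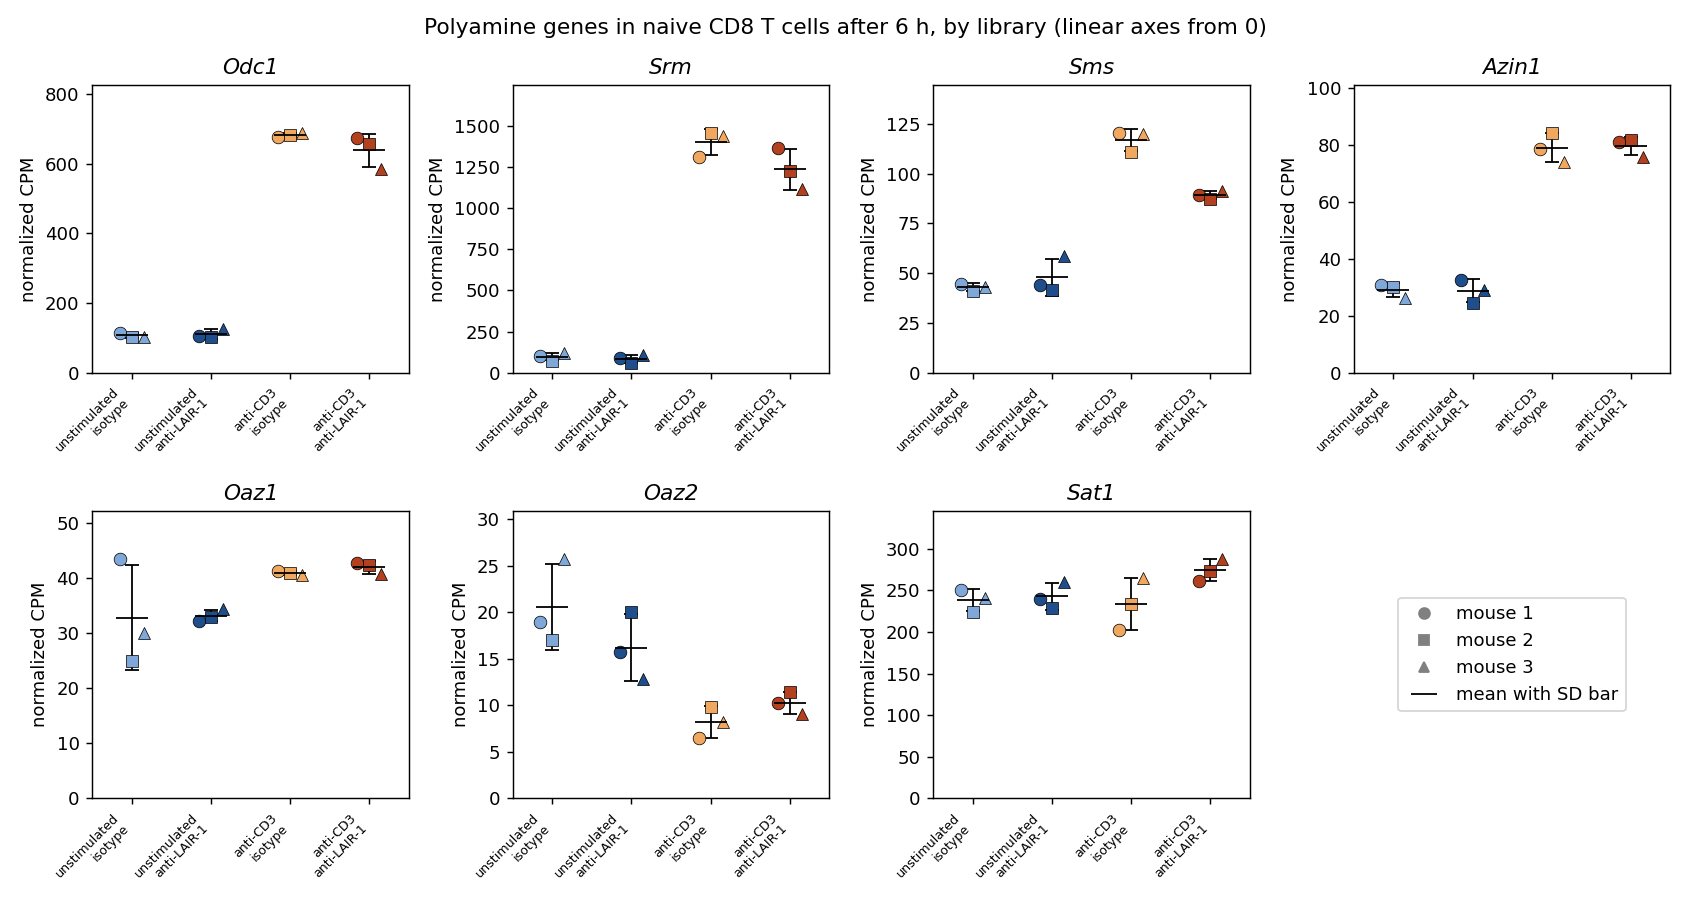
CPM (vertical axes, linear, from 0) of the 7 tested members in the 4 groups, with 1 point per library and a bar at the mean ± SD of 3 mice. Odc1, Srm, Sms and Azin1 lie higher in both groups with anti-CD3, Oaz2 lies lower, and Sms lies lower in anti-CD3 anti-LAIR-1 (89.3 CPM on average) than in anti-CD3 isotype (117 CPM).

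The same comparison was made with anti-LAIR-1 on the plate in both groups, in libraries that the first comparison did not use. The synthesis genes and Azin1 were again higher and Oaz2 lower. Oaz1 also passed the test, as higher, so that the 2 antizyme genes were called in opposite directions. In all, 5 of 7 members were higher and 1 was lower, where 72.7% of 9000 genes were called, 36.4% higher and 36.3% lower.

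Odc1 was 106, 101 and 127 CPM without and 675, 658 and 586 CPM with anti-CD3, and Srm was 87.7, 56.3 and 105 CPM without and 1365, 1225 and 1119 CPM with it. The log2 fold changes were 2.50 for Odc1 (SE 0.09, edgeR adjusted p = 2.1e-14) and 3.88 for Srm (SE 0.14, edgeR adjusted p = 2.2e-14), and in both genes all stimulated libraries lay above all unstimulated ones. Sms went from 43.8, 41.3 and 58.6 CPM to 89.4, 87.2 and 91.4 CPM, which gave a log2 fold change of 0.88 (SE 0.12, edgeR adjusted p = 2.2e-06). Azin1 went from 32.5, 24.5 and 29.2 CPM to 81.2, 81.8 and 75.9 CPM, a log2 fold change of 1.46 (SE 0.12, edgeR adjusted p = 2.4e-09).

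Oaz1 held 32.3, 32.9 and 34.3 CPM without and 42.7, 42.3 and 40.6 CPM with anti-CD3, a narrow but separate pair of ranges. Its log2 fold change of 0.32 (SE 0.12) passed the test (edgeR adjusted p = 0.0238), but not when the counts were scaled by library totals only (adjusted p = 0.133). It also missed the threshold without mouse 1 of the unstimulated anti-LAIR-1 group (adjusted p = 0.0506) and without mouse 1 of the anti-CD3 anti-LAIR-1 group (adjusted p = 0.0509). Oaz2 went from 15.7, 20.0 and 12.9 CPM to 10.3, 11.4 and 9.09 CPM, with a log2 fold change of -0.67 (SE 0.21, edgeR adjusted p = 0.00813). This call was lost with DESeq2 (adjusted p = 0.0523) and without mouse 2 of the unstimulated anti-LAIR-1 group (adjusted p = 0.0697). Sat1 held 239, 229 and 260.3 CPM without and 261, 273 and 288 CPM with anti-CD3, and its log2 fold change of 0.16 did not pass (95% interval -0.01 to 0.32, edgeR adjusted p = 0.0796). It passed with DESeq2 (adjusted p = 0.0308), with no filter on low counts (adjusted p = 0.00796), without mouse 3 of the unstimulated anti-LAIR-1 group (adjusted p = 0.0375) and without mouse 1 of the anti-CD3 anti-LAIR-1 group (adjusted p = 0.0470).

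Whether LAIR-1 ligation changed these genes during stimulation was then examined in the 6 libraries with anti-CD3. Sms was the only member that passed the test, and it was lower with anti-LAIR-1. The count of 1 of 7 members compares with 5.76% of 8800 genes called, 3.9% higher and 1.86% lower. An edgeR unadjusted p under 0.05 was held by 3 of 7 members and by 18.8% of all genes. The median log2 fold change was 0.02 over the 7 members and 0.00 over all genes.

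The 3 anti-CD3 isotype libraries held 120.4, 111 and 119.8 CPM of Sms, and the 3 with anti-LAIR-1 held 89.4, 87.2 and 91.4 CPM, so that the ranges were apart. The log2 fold change was -0.38 (SE 0.08, 95% interval -0.56 to -0.21, edgeR adjusted p = 0.00924), a level 1.30-fold lower, and within mouse 1, 2 and 3 the log2 difference was -0.43, -0.34 and -0.39. The call held with each library left out in turn, where the adjusted p reached at most 0.04995, and 94.5% of the genes tested had a higher fold change. Summed levels of some marker lists also stood apart between these 2 groups. Those of the Cd4, the myeloid, and the red cell and platelet lists overlapped. With anti-LAIR-1, the 5 CD8 T cell markers were at 1706 to 1896 CPM instead of 1364 to 1436, the 5 naïve markers at 571 to 707 CPM instead of 407 to 491, the 2 natural killer cell markers at 134 to 162 CPM instead of 71.4 to 95.7, and the 6 B cell markers at 6.98 to 7.82 CPM instead of 10.5 to 12.7. Their part in the difference of Sms was not tested. Of the 60-base stretches at the 3' end of Sms, 25.9% are shared with other annotated genes, chiefly its pseudogene.

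Srm was 1311, 1458 and 1438 CPM with isotype and 1365, 1225 and 1119 CPM with anti-LAIR-1, and it was lower with anti-LAIR-1 in mouse 2 and 3 but not in mouse 1. Its log2 fold change of -0.18 (95% interval -0.33 to -0.02) did not pass after adjustment (edgeR unadjusted p = 0.0290, adjusted p = 0.2002). Odc1 lay at 678, 683 and 689 CPM with isotype and at 675, 658 and 586 CPM with anti-LAIR-1. The ranges lay next to each other without overlap, and the log2 fold change was -0.09 (95% interval -0.23 to 0.05, edgeR adjusted p = 0.524).

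Sat1 was 202, 233.5 and 265 CPM with isotype and 261, 273 and 288 CPM with anti-LAIR-1, higher with anti-LAIR-1 within each of the 3 mice although the groups overlapped. Its log2 fold change of 0.23 (95% interval 0.04 to 0.41) did not pass after adjustment (edgeR unadjusted p = 0.0193, adjusted p = 0.159), but it did without mouse 3 of the anti-CD3 isotype group (log2 fold change 0.33, adjusted p = 0.0499). Azin1, Oaz1 and Oaz2 gave log2 fold changes of 0.02, 0.04 and 0.31, and the interval of Oaz2 was wide (-0.15 to 0.78, edgeR adjusted p = 0.487).

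In unstimulated cells, no member passed the test for anti-LAIR-1 against isotype, with 0 of 7 at an unadjusted p under 0.05 and 0 with DESeq2. Of all 8770 genes, 0 (0%) were called by edgeR and 0 by DESeq2, and 384 had an unadjusted p under 0.05. The 95% intervals of the log2 fold changes were -0.21 to 0.27 for Odc1, -0.60 to 0.13 for Srm, -0.18 to 0.46 for Sms and -0.18 to 0.20 for Sat1, and changes within these ranges are not excluded. Srm was lower with anti-LAIR-1 within each of the 3 mice, with log2 differences of -0.18, -0.38 and -0.16. On average it held 96.8 ± 22.3 CPM (SD, n = 3) with isotype and 83.1 ± 24.8 CPM with anti-LAIR-1. The spread between mice exceeded that difference, but it does not measure the spread of differences within a mouse. With mouse as a block, the log2 fold change of Srm was -0.25 and did not pass (edgeR adjusted p = 0.895).

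**Figure D2:**
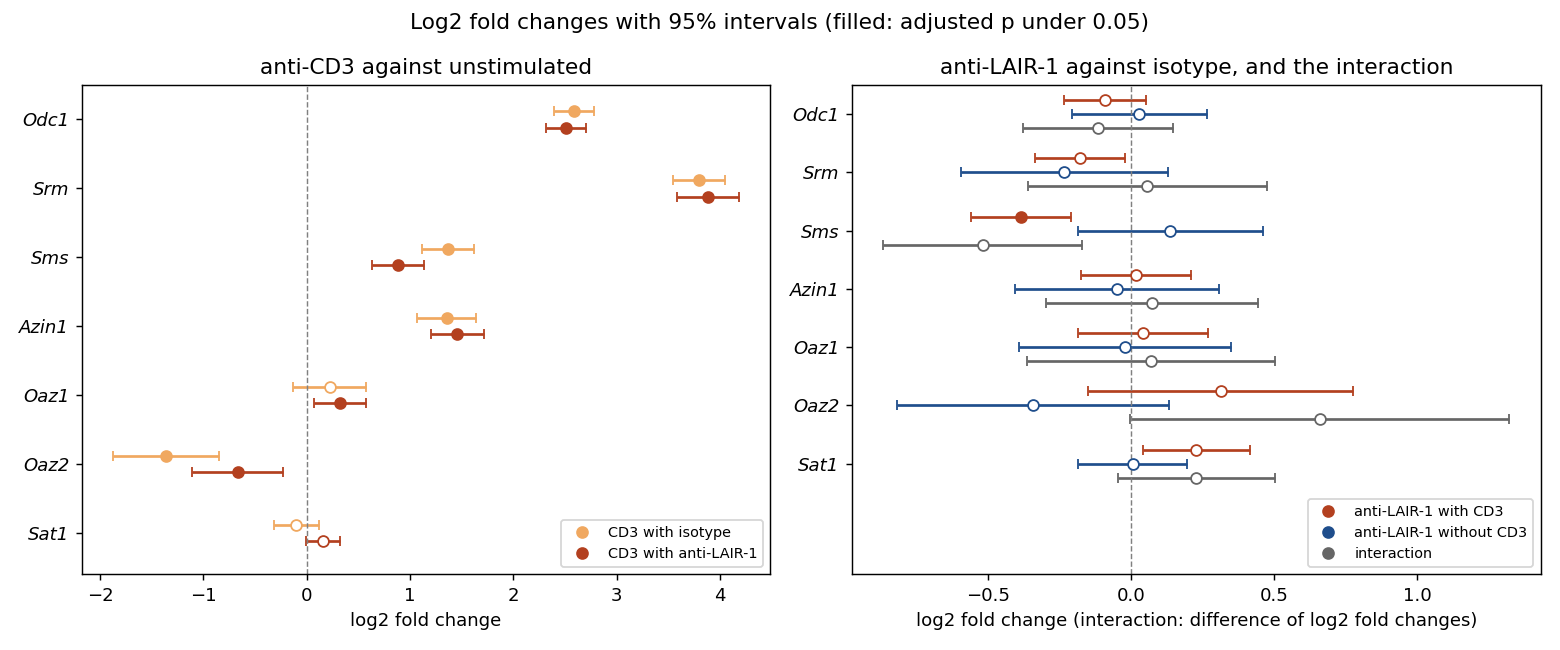
Log2 fold changes of the 7 tested members (horizontal axes) with 95% intervals, for anti-CD3 against unstimulated on the left, and for anti-LAIR-1 against isotype with the interaction on the right. Filled points passed an adjusted p under 0.05, which on the right holds for Sms with anti-CD3 (-0.38) alone.

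The difference between the effects of anti-LAIR-1 with and without anti-CD3 was tested as an interaction over the 12 libraries. No member passed (0 of 7 by edgeR, and 0 by DESeq2, which gave no adjusted p for Oaz2). Of 9223 genes, 2.07% passed by edgeR, 1.82% in the higher and 0.249% in the lower direction. An edgeR unadjusted p under 0.05 was held by 1 of 7 members and by 12.2% of all genes. For Sms the difference of log2 fold changes was -0.52 (SE 0.17, 95% interval -0.87 to -0.17, edgeR unadjusted p = 0.00511, adjusted p = 0.131). Its fall with anti-LAIR-1 in stimulated cells was thus not shown to differ from the change in unstimulated cells, where mouse 3 with anti-LAIR-1 held the highest unstimulated level of 58.6 CPM. For Oaz2 the difference was 0.66 (95% interval -0.00 to 1.32, edgeR adjusted p = 0.412), and for Sat1 it was 0.23 (95% interval -0.05 to 0.50, edgeR adjusted p = 0.538). Odc1, Srm, Azin1 and Oaz1 gave differences of -0.11, 0.06, 0.07 and 0.07.

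Ratios of the counts of 2 genes within a library do not depend on the scaling between libraries. They set transcripts of synthesis genes against those of the brakes on synthesis, and they do not compare the absolute levels of the 2 transcripts. All but Odc1 to Sat1 divide by Oaz1, whose counts are uncertain because 50.2% of its 60-base stretches at the 3' end are shared with other annotated genes. The ratio of Odc1 to Oaz1 was 2.66 to 4.14 in unstimulated isotype cells and 3.08 to 3.70 with anti-LAIR-1, and it was 16.5 to 17.0 with anti-CD3 and 14.4 to 15.8 with both antibodies. The ratio therefore rose by stimulation in every mouse, and the 3 libraries with both antibodies lay below the 3 with anti-CD3 and isotype. Srm to Oaz1 rose from 2.28 to 3.93 to between 31.8 and 35.6 with isotype, and from 1.71 to 3.07 to between 27.6 and 32.0 with anti-LAIR-1. Azin1 to Oaz1, the inhibitor against its antizyme, was 0.710 to 1.21 and 0.744 to 1.01 in the unstimulated groups and 1.83 to 2.06 and 1.87 to 1.93 in the stimulated groups.

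The ratio of Odc1 to Sat1 set the first step of synthesis against the first step of breakdown. It was 0.431 to 0.462 in unstimulated isotype cells and 0.443 to 0.488 with anti-LAIR-1, a narrow range in all 6 libraries. With anti-CD3 it was 2.60 to 3.36 with isotype and 2.03 to 2.59 with anti-LAIR-1, and the 2 stimulated groups did not overlap. A permutation test of 3 against 3 libraries cannot go below p = 0.10, and these ratios are given as descriptions.

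**Figure D3:**
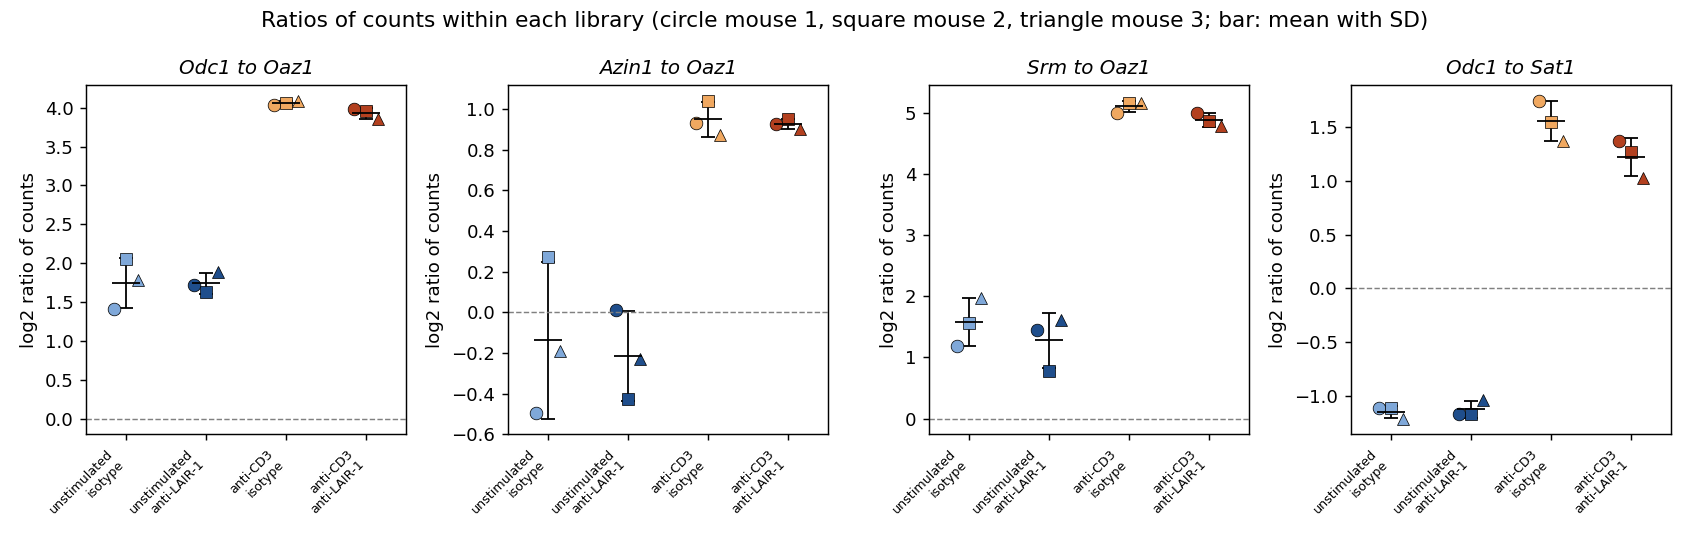
Ratios of counts within each library for 4 pairs of members, on a log2 vertical axis, with 1 point per library and bars at the mean ± SD of 3 mice. All stimulated libraries lie above all unstimulated ones in each pair, and Odc1 to Oaz1 and Odc1 to Sat1 are lower with both antibodies than with anti-CD3 and isotype.

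Among the 12 libraries, the genes whose log2 CPM followed Odc1 most closely were Magoh, Map2k3, Bdh2, Pgam1 and Pcbp1, of 9222 genes compared. Because the libraries fell into 2 sets by stimulation, the correlation is given within each set of 6 libraries, where Pearson's r with Odc1 ranged from 0.78 to 0.94 without and from 0.67 to 0.89 with anti-CD3. For Sat1, the closest genes were Mrpl4, Hagh, Creb3l2, Lactb and Ebag9. Its levels overlapped by stimulation over the 12 libraries, though not among the 6 libraries with anti-LAIR-1. Their r with Sat1 was -0.05 to 0.57 without and 0.83 to 0.92 with anti-CD3, and all of these are descriptions of the closest of many genes.

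The genes around the core pathway were followed with 28 further genes, of which 20 were in the table and 18 were tested. Anti-CD3 raised 10 and lowered 2 of the 18 with isotype, and likewise raised 10 and lowered 2 with anti-LAIR-1. In the 2 comparisons, 71.3% and 72.7% of all genes were called (35.3% and 36.4% higher, 36.1% and 36.3% lower). The share of the 18 called in either direction was slightly below that of all genes. The share raised was larger than that of all genes called higher, and the share lowered was smaller than that of all genes called lower. The median log2 fold changes of the 18 were 0.84 and 0.71, against -0.03 and -0.04 over all genes tested. The 4 genes of the hypusine list, whose products turn a spermidine-derived group into the hypusine of translation factor eIF5A or are its targets, were all higher in both comparisons, where 35.3% and 36.4% of all genes were called higher. Eif5a itself rose from 1493 ± 198 CPM (SD, n = 3) to 9115 ± 269 CPM with isotype (log2 fold change 2.53, SE 0.09), and by 2.60 on the log2 scale with anti-LAIR-1. The hydroxylase gene Dohh rose by 1.79 and 1.44 on the log2 scale, the synthase gene Dhps by 0.77 and 1.06, and the second factor gene Eif5a2 by 1.12 and 0.69. Of the 60-base stretches at the 3' end of Dohh, 41.7% are shared with another annotated gene.

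The supply of S-adenosylmethionine and the salvage of methylthioadenosine, the by-product of both synthases, were read from 8 genes, of which 7 were tested. Of these, 3 rose and 1 fell in both comparisons, a share of called genes below the 71.3% and 72.7% of all genes. Mat2a, the enzyme that makes S-adenosylmethionine, rose from 251 ± 20.6 to 1111 ± 90.3 CPM (SD, n = 3) with isotype, a log2 fold change of 2.07 (1.93 with anti-LAIR-1). Mtap, the phosphorylase that starts the salvage, rose from 41.8 ± 5.75 to 319 ± 4.41 CPM (SD, n = 3), a log2 fold change of 2.86 (2.68 with anti-LAIR-1), and Enoph1 of the same salvage route rose by 1.66 and 1.60 on the log2 scale. Mat2b, the regulatory subunit that binds Mat2a, fell by 0.82 and 0.56 on the log2 scale. Mri1, Apip and Adi1 did not pass.

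Among 6 transport genes 4 were tested, and 3 rose and 1 fell in both comparisons. Of all genes, 71.3% and 72.7% were called there, 35.3% and 36.4% as higher. The arginine transporter gene Slc7a1 rose from 64.7 ± 9.05 to 423 ± 14.1 CPM (SD, n = 3) with isotype (log2 fold change 2.64, and 2.42 with anti-LAIR-1), the amino acid transporter chain Slc3a2 rose by 1.71 and 1.72 on the log2 scale, and the polyamine transporter Atp13a3 by 0.90 and 0.74. Atp13a2, the lysosomal polyamine exporter, went down instead, with log2 fold changes of -1.80 (isotype) and -1.81 (anti-LAIR-1). Its counts were low, at 7 to 29 with anti-CD3 isotype (2.15 to 4.70 CPM) and 19 to 27 with anti-CD3 anti-LAIR-1. Slc18b1 and Slc12a8 were too low to be tested. The ornithine aminotransferase gene Oat and the oxidase genes Smox and Paox did not pass in either comparison. When mouse was added as a block, the spermine oxidase gene Smox passed with isotype (log2 fold change 0.75, adjusted p = 0.0346, against 0.66 and adjusted p = 0.0664 without the block), so that 13 of 18 were called. That fit called 6138 of 8690 genes, a share near that of the 18. Arg1, Arg2, Agmat, Azin2, Oaz3, Amd2, Sat2 and Mat1a were not analysed here. Myc, the activator listed beside them, rose from 43.4 ± 7.74 to 698 ± 64.3 CPM (SD, n = 3), a log2 fold change of 3.94 (3.68 with anti-LAIR-1).

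Anti-LAIR-1 in stimulated cells lowered 3 of the 18 and raised 0, by small amounts near the threshold, where 1.86% of all genes were called lower and 3.9% higher. They were Slc7a1 (log2 fold change -0.30, edgeR adjusted p = 0.0366), Mat2a (-0.27, adjusted p = 0.0474) and Mtap (-0.24, adjusted p = 0.0496). With the mouse number as a block, Mtap was lost (adjusted p = 0.0553), so that 2 of 18 were called, against 549 of 8800 genes. With all 12 libraries in 1 edgeR fit, Slc7a1 (adjusted p = 0.0894), Mat2a (0.0548) and Mtap (0.143) all missed the threshold. Scaling by library totals lost Mat2a (edgeR adjusted p = 0.0589) and Mtap (0.0660), and leaving out the filter on low counts lost Mtap (0.0555). All 3 passed with the size factors of DESeq2 in edgeR, and with DESeq2 (adjusted p 0.0113 to 0.0218). Without any 1 of the 6 libraries Mtap was not called, with adjusted p from 0.0858 to 0.160, and Mat2a and Slc7a1 were each called in 1 of 6 such fits, with adjusted p up to 0.186 and 0.134. With all 6 libraries the groups of these 3 genes did not overlap, as for Mtap at 319 ± 4.41 CPM with isotype and 270.1 ± 8.94 CPM with anti-LAIR-1 (SD, n = 3). The 3 genes were named because they passed on these same values, so the separation adds no support to the calls. Myc missed the threshold at a log2 fold change of -0.28 (edgeR adjusted p = 0.0519), and it passed with DESeq2 (adjusted p = 0.0198), with the size factors of DESeq2 in edgeR (adjusted p = 0.0465), with no filter on low counts (adjusted p = 0.00599) and without mouse 1 of the anti-CD3 isotype group (adjusted p = 0.0240). Without anti-CD3, 0 of the 18 passed by edgeR or DESeq2, where 0% of all genes were called by edgeR. An edgeR unadjusted p under 0.05 was held there by 1 of the 18 and by 4.38% of all genes. In the interaction, 0 of the 18 passed by edgeR, where 2.07% of all genes were called. There 0 of the 18 held an edgeR unadjusted p under 0.05, against 12.2% of all genes. By DESeq2 0 passed the interaction, and no adjusted p was given for Smox, Paox, Apip and Atp13a2 there.

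**Figure D4:**
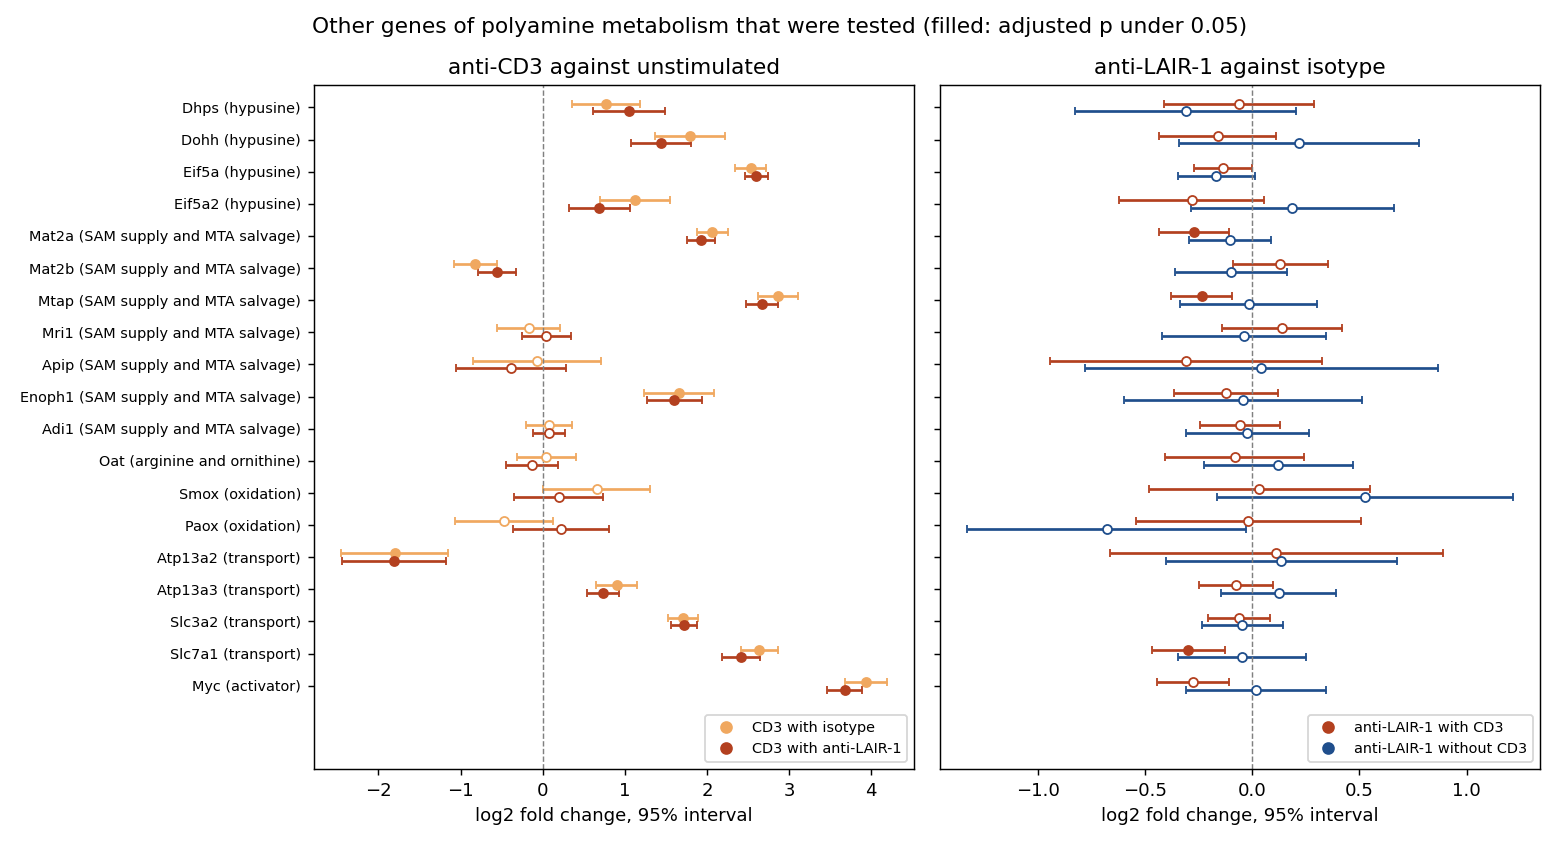
Log2 fold changes with 95% intervals (horizontal axes) of the 18 tested genes around the pathway and of Myc, with the list of each gene in brackets, for anti-CD3 against unstimulated on the left and anti-LAIR-1 against isotype on the right. Filled points passed an adjusted p under 0.05, and on the right these are Mat2a, Mtap and Slc7a1 with anti-CD3.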

How the data were processed

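Libraries of 12 samples (3 mice in each of 4 conditions) were analysed. The deposited values are raw counts per gene symbol, made by the authors by CEL-seq, which reads transcripts near their 3' ends, with alignment of read 2 to the mm10 transcriptome by BWA MEM. Reads that matched several places equally well were discarded, and whether molecular identifiers were collapsed is not given in the sources used here.

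Counts were tested with edgeR (4.0.16, R 4.3.3) by the quasi-likelihood test after TMM scaling and filterByExpr, with Benjamini-Hochberg adjustment over all genes tested and a threshold of 0.05. Each comparison used its own groups, and the interaction used all 12 libraries. SE is the log2 fold change divided by the square root of F. Log2 CPM had a prior count of 2. The study's methods use DESeq2 with no stated block, and DESeq2 (1.42.0) was an alternative here, besides other scalings, no filter, all libraries in 1 fit, leaving out each library and the mouse as a block. Coordinates and 3' ends come from GENCODE M21 (GRCm38), and promoter windows from RefSeq.

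Titles gave group and mouse number, and libraries of the same number came from the same mouse. Deviations from group means correlated weakly within a mouse (mean r 0.0263 to 0.0892 per comparison). No 2 libraries of the same group agreed within sampling noise. The 8 genes, the other lists and the tests were chosen with earlier results of these data known. Members were always described, and other genes only where they passed in at least 1 comparison or to say that they were not tested, did not pass or were not listed. Myc was described as a known activator of Odc1. The genes named beside Odc1 and Sat1 were those with the highest Pearson correlation of log2 CPM over all libraries, whether or not they passed a test.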

Additional observations from a re-analysis of the deposited data

How the results depend on the processing

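The number of members called was 5 (anti-CD3 with isotype), 6 (anti-CD3 with anti-LAIR-1), 1 (anti-LAIR-1 with anti-CD3), 0 (anti-LAIR-1 without anti-CD3) and 0 (interaction). With 1 library left out in turn these became 5 to 6, 5 to 7, 1 to 2, 0 and 0, where the 2 arose without mouse 3 of the anti-CD3 isotype group, and the counts over all genes were 5932 to 6153, 6218 to 6450, 293 to 427, 0 to 1 and 103 to 186. Mouse number as a replicate block, taken from the titles, changed the call of no member. It gave 6138, 6478, 549, 0 and 218 genes, and it moved the log2 fold change of Oaz1 for anti-LAIR-1 without anti-CD3 from -0.02 to 0.00461. In that comparison, leaving out the filter on low counts gave 5 genes instead of 0. Of 202 log2 fold changes of members under settings that kept all libraries, 197 kept direction and side of the threshold, 2 lost the call, 2 gained it and 1 turned sign.

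With 1 library left out, fold changes near 0 turned sign. For anti-CD3 with isotype Sat1 ranged from -0.18 to 0.020, and for anti-LAIR-1 with anti-CD3 Azin1 ranged from -0.036 to 0.067. For anti-LAIR-1 without anti-CD3, the ranges were -0.075 to 0.092 (Odc1), -0.033 to 0.23 (Sms), -0.14 to 0.055 (Azin1), -0.19 to 0.25 (Oaz1), -0.048 to 0.045 (Sat1) and -0.12 to 0.11 (Myc). For the interaction they were -0.16 to 0.26 (Srm), -0.030 to 0.17 (Azin1) and -0.20 to 0.23 (Oaz1). The cause was not tested. Scaling by library totals moved the median log2 fold change of all genes to -0.12 (anti-CD3 with isotype) and -0.15 (anti-CD3 with anti-LAIR-1). Among the tested members, counting error weighs most on Oaz2, which held 6.45 to 25.8 CPM. Outside the members, the called gene Atp13a2 was lower still, at 2.15 to 4.70 CPM with anti-CD3 isotype.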
